A study of Mus musculus with 23 samples.

Results

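The miR-129 family of the mouse is read out here as 3 mature arms, miR-129-5p, miR-129-1-3p and miR-129-2-3p, which are 3 of the 1915 miRNA names in the deposited count tables. The rule that picks them uses their names and no measured value. All 3 passed the filter on low counts together with 666 other miRNAs. Small RNA was sequenced from dissected brain regions of C57BL/6 mice carrying a Cdr1as knockout and of wild type mice. The groups were cerebellum of knockout (n = 3) and wild type (n = 3), cortex of knockout (n = 3) and wild type (n = 3), hippocampus of knockout (n = 2, numbered 2 and 3) and wild type (n = 3), and olfactory bulb of knockout (n = 3) and wild type (n = 3), 23 libraries in all. The labels give no treatment, age or sex, and do not say whether a replicate is a separate mouse, so a p-value measures the spread between these samples, which may be technical in part.

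MicroRNAs are cut from hairpin precursors, first in the nucleus and then in the cytoplasm, and either side of the hairpin, the 5p or the 3p arm, can enter an Argonaute protein and direct it to target mRNAs through the seed near its 5′ end. The miR-129 family is known as brain-enriched, and miR-129-5p is known in rodent neurons as a repressor of the potassium channel Kv1.1 and as a regulator of synaptic downscaling. Cdr1as, the RNA deleted in the knockout, is a circular transcript that binds miR-7 at many positions and is cut by miR-671. MicroRNA libraries do not measure Cdr1as, so its loss was not checked here.

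The mouse has a pair of miR-129 precursors, and their sequences show which counts can be traced to which gene. They are shown from RefSeq on build GRCm38.p6, whose mature table matched 2 of the 3 members by name. The deposited counts were made on mm9, so these coordinates belong to the reference and not to the files. In the mature arms, capitals mark the seed, bases 2 to 8.
miR-129-5p: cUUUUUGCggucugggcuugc
miR-129-2-3p: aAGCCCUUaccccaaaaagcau
The 5p arm is 21 bases long and is encoded identically at chr6:29022624-29022644 on the plus strand, in Mir129-1, and at chr2:94241419-94241439 on the minus strand, in Mir129-2. A 5p count therefore cannot be assigned to either precursor. MiR-129-2-3p is 22 bases long and lies at chr2:94241376-94241397 on the minus strand. No other mature entry among the 1679 names of the table had the seed of miR-129-5p or that of miR-129-2-3p.

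The whole hairpins follow, with the 5p arm and the 3p stretch in capitals, to show how the precursors differ outside the arms.
Mir129-1: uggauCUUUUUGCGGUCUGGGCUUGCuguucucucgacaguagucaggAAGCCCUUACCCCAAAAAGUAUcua
Mir129-2: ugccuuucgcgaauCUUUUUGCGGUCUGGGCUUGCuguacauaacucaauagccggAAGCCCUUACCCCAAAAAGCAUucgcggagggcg
Mir129-1 spans chr6:29022619-29022691 on the plus strand and overlaps an exon of the long intergenic non-coding RNA gene Gm3294 in GENCODE M21. Mir129-2 spans chr2:94241364-94241453 on the minus strand, within an intron of the long intergenic non-coding RNA gene Mir670hg. The loops between the arms are 22 bases long in Mir129-1 and 21 bases long in Mir129-2. The 3p stretches differ at a single base, which is in capitals here.
miR-129-2-3p: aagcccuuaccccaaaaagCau
Mir129-1 hairpin, chr6:29022667-29022688: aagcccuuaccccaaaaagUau
The substitution is C20U, counted from the 5′ end of miR-129-2-3p, with the Mir129-2 base first. The first 19 bases are the same in both, including the seed. A 3p read that ends before base 20 matches both precursors, and the labels do not say to which arm such reads were counted. The split between the 3p arms is uncertain at least to that extent in every library. It is more so if the counting allowed a mismatch, which the labels do not say. Whether the share of ambiguous reads differs between regions was not tested.

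The libraries held 2328929 to 13070794 miRNA counts, and the 3 arms together made up 0.0881% to 0.293% of them. MiR-129-5p was the most abundant arm, with 2105 to 18753 counts and a rank between 54 and 82 among all miRNAs of its library. MiR-129-2-3p followed with 334 to 8496 counts, and miR-129-1-3p had 101 to 3041. In 23 of 23 libraries miR-129-1-3p was below miR-129-2-3p, and the 5p count exceeded the sum of both 3p counts. The Mir129b hairpin, which overlaps Mir129-2 on the opposite strand, was barely detected, with 3 counts of miR-129b-5p in 2 libraries together and 0 of miR-129b-3p.

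MiR-129-5p was highest in the cerebellum in both genotypes. Levels are given as CPM, counts scaled to library totals and TMM factors. In the cerebellum the level was 1602, 1691 and 1858 CPM in knockout libraries, against 1650, 2119 and 1989 CPM in wild type libraries. In the cortex it was 1033, 1104 and 1032 CPM in knockout libraries, against 944, 1170 and 1095 CPM in wild type libraries. The 6 cerebellar libraries thus all lay above the 6 cortical ones, and knockout and wild type overlapped in both regions. In the hippocampus the level was 872.1 and 872.2 CPM in knockout libraries, against 892, 915 and 762 CPM in wild type libraries. In the olfactory bulb it was 1042, 1026 and 1112 CPM in knockout libraries, against 1080, 1087 and 1072 CPM in wild type libraries. Hippocampus was the lowest region, below every olfactory bulb library, and the genotypes overlapped again.

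MiR-129-1-3p, the arm read from Mir129-1, had the widest range between regions in relative terms. In the cerebellum it reached 344, 328.5 and 368 CPM in knockout libraries, against 239, 315.5 and 311 CPM in wild type libraries. In the cortex it was 104, 127 and 86.0 CPM in knockout libraries, against 109.7, 119 and 108 CPM in wild type libraries. Here the lowest cerebellar library, wild type 1, was still above the highest cortical one. In the hippocampus the level was 51.5 and 60.8 CPM in knockout libraries, against 36.0, 58.7 and 59.3 CPM in wild type libraries. In the olfactory bulb it was 103.7, 149.5 and 53.4 CPM in knockout libraries, against 178, 125.5 and 97.5 CPM in wild type libraries. The olfactory bulb was the most variable region for this arm, and its knockout library 3, the shallowest there, fell within the hippocampal range.

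MiR-129-2-3p, the arm read from Mir129-2, was high in cerebellum and cortex alike. In the cerebellum it was 896, 879 and 1029 CPM in knockout libraries, against 572, 871 and 852.5 CPM in wild type libraries. In the cortex it was 592, 870.1 and 608 CPM in knockout libraries, against 804, 817 and 789 CPM in wild type libraries. The cortical range lay within the cerebellar range. In the hippocampus the level was 343 and 434 CPM in knockout libraries, against 242, 442 and 428 CPM in wild type libraries. In the olfactory bulb it was 274, 398 and 176.5 CPM in knockout libraries, against 479, 325 and 294.5 CPM in wild type libraries. Hippocampus and olfactory bulb overlapped, and both lay below every cortical library.

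**Figure D1:**
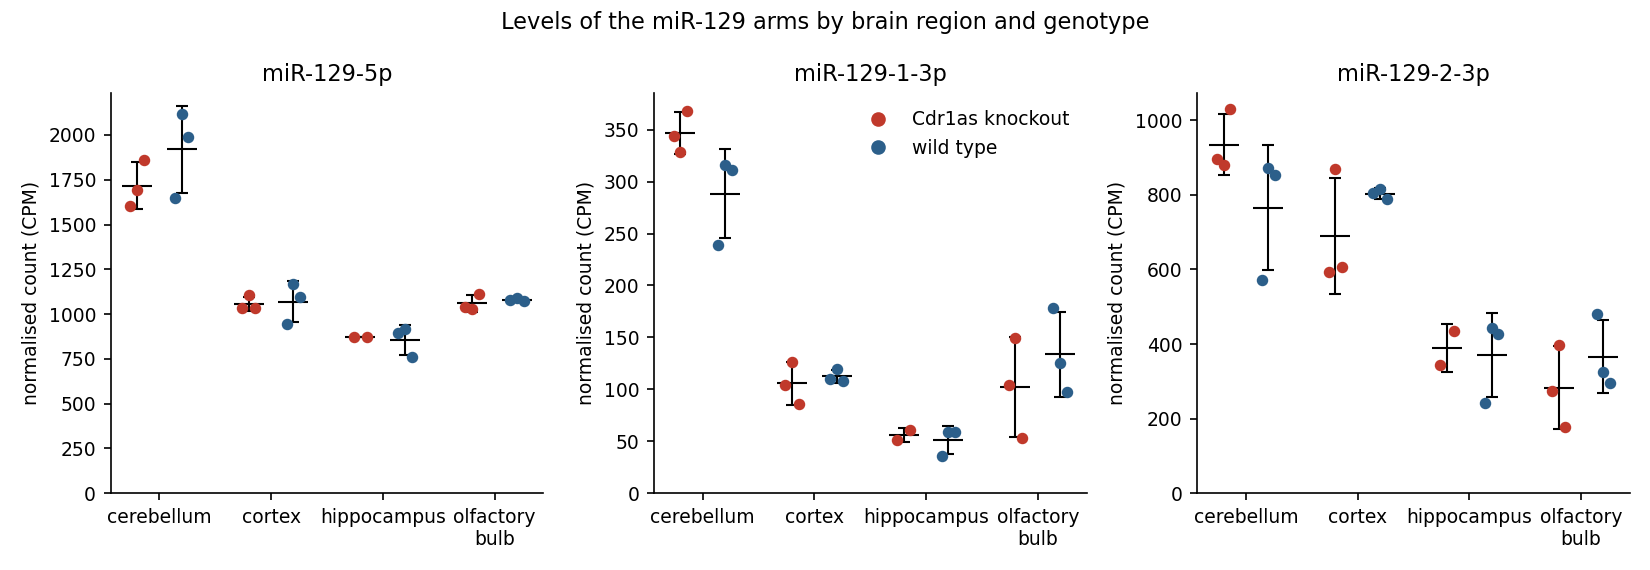
Normalised counts (CPM) of the 3 miR-129 arms by brain region, 1 panel per arm on its own linear axis starting at 0. Points are libraries, with Cdr1as knockout left of wild type, and black bars are the mean ± SD (n = 3, and n = 2 for hippocampus knockout). MiR-129-5p and miR-129-1-3p are highest in the cerebellum, whereas miR-129-2-3p is high in both cerebellum and cortex.

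The regional differences were tested with the quasi-likelihood method of edgeR, and p-values were adjusted by Benjamini and Hochberg over the 669 miRNAs tested. Regional differences are the rule in these libraries: across the 4 regions 504 of 669 miRNAs (75.3%) passed an adjusted p under 0.05 in knockout and 535 (80%) in wild type, so the members' calls do not set them apart. All 3 members passed in both genotypes. In knockout libraries the adjusted p was 8.15e-07 for miR-129-5p, 3.57e-07 for miR-129-1-3p and 4.003e-05 for miR-129-2-3p. In wild type libraries it was 2.094e-08, 7.426e-07 and 0.0003021 in the same order. In bulk tissue, fewer cells that carry an arm and less of it per cell cannot be told apart.

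Cerebellum over hippocampus was the widest contrast for miR-129-5p and miR-129-1-3p, and all 3 arms were higher in the cerebellum in both genotypes, against a background of 52.9% of miRNAs called in either direction in knockout and 57.7% in wild type. MiR-129-1-3p was higher by 2.63 on the log2 scale in knockout (SE 0.33, adjusted p = 9.649e-07) and by 2.49 in wild type (SE 0.28, adjusted p = 1.918e-07). MiR-129-5p differed by 0.98 in knockout and 1.16 in wild type, and miR-129-2-3p by 1.27 and 1.05 in the same order. The Mir129-1 arm thus had the largest point estimate of the 3. Under library-size scaling miR-129-2-3p was at 0.71 in knockout (adjusted p = 0.05297) and 0.32 in wild type (adjusted p = 0.3077), with the median of all miRNAs at -0.53 and -0.75 in the same order.

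Cerebellum over cortex separated the 3p arms. MiR-129-1-3p was higher in the cerebellum by 1.71 in knockout (SE 0.27, adjusted p = 1.802e-05) and by 1.36 in wild type (SE 0.27, adjusted p = 0.0001849). MiR-129-2-3p did not pass, with 0.44 in knockout (95% interval -0.11 to 0.98, adjusted p = 0.1576) and -0.07 in wild type (95% interval -0.61 to 0.47, adjusted p = 0.8281). MiR-129-5p was higher in the cerebellum by 0.70 in knockout and 0.84 in wild type, and passed in both under the TMM scaling used here, though under library-size scaling it was 0.08 and 0.15 in the same order and passed in neither. That scaling put miR-129-2-3p at -0.19 in knockout and -0.78 in wild type, the wild type value past the threshold (adjusted p = 0.01668), with the median of all miRNAs at -0.53 in knockout and -0.66 in wild type, and upper-quartile scaling put it at 0.70 in knockout (adjusted p = 0.02469). Thus 2 of 3 members were called in each genotype, where the background was 59.8% in knockout and 62.6% in wild type.

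Cerebellum over olfactory bulb gave calls for all 3 members in both genotypes, against backgrounds of 52.8% in knockout and 55.5% in wild type. MiR-129-1-3p was higher in the cerebellum by 1.74 in knockout and 1.10 in wild type. MiR-129-2-3p was higher by 1.72 and 1.06 in the same order, and miR-129-5p by 0.70 and 0.83. Both 3p arms thus moved by nearly the same amount between these regions, unlike between cerebellum and cortex.

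Cortex over olfactory bulb again split the 3p arms, in the other direction. MiR-129-2-3p was higher in the cortex by 1.28 in knockout (SE 0.27, adjusted p = 0.0004341) and by 1.13 in wild type (SE 0.27, adjusted p = 0.001182). MiR-129-1-3p was at 0.03 in knockout and -0.25 in wild type, and miR-129-5p at -0.005 and -0.01 in the same order, none of which passed. Library-size scaling turned the sign of 3 of these 4 small values (miR-129-5p 0.89 in both genotypes, miR-129-1-3p 0.65 in wild type) and put miR-129-1-3p at 0.93 in knockout, and all 4 then passed (adjusted p = 0.007468 for the last). Under that scaling the median of all miRNAs shifted by 0.88 in knockout and 0.84 in wild type. Relative to that median miR-129-5p was at 0.02 in knockout and 0.05 in wild type, and miR-129-1-3p at 0.06 in knockout and -0.20 in wild type. The background was 50.7% in knockout and 53.2% in wild type, with 1 of 3 members called in each.

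Hippocampus over olfactory bulb split the 3p arms in the same direction, with miR-129-1-3p the lower of them. In knockout libraries miR-129-1-3p was lower in the hippocampus (log2 fold change -0.89, SE 0.31, adjusted p = 0.02351), while miR-129-2-3p was at 0.45 (adjusted p = 0.215). In wild type libraries miR-129-1-3p was lower (log2 fold change -1.38, SE 0.27, adjusted p = 0.0002347), and miR-129-2-3p was at 0.02 (95% interval -0.53 to 0.56). The knockout call for miR-129-1-3p was lost under upper-quartile scaling (-0.67, adjusted p = 0.07789) and without hippocampus knockout 2 (adjusted p = 0.1523), hippocampus knockout 3 (adjusted p = 0.076) or olfactory bulb knockout 2, where the value moved to -0.51 (adjusted p = 0.1771). MiR-129-5p was at -0.28 in knockout (adjusted p = 0.06241) and -0.33 in wild type (adjusted p = 0.01226). The knockout value passed with DESeq2 (adjusted p = 0.04364) and in edgeR without cerebellum wild type 1 (adjusted p = 0.04299). It also passed in edgeR with replicate numbers as a block (adjusted p = 0.04109). The wild type call was lost under upper-quartile scaling (-0.16, adjusted p = 0.3545), with no filter (adjusted p = 0.4439) and without hippocampus wild type 3 (adjusted p = 0.06268). Library-size scaling turned the direction of miR-129-5p round, to 0.55 in knockout and 0.58 in wild type, with the median of all miRNAs at 0.81 and 0.92 in the same order. Under that scaling miR-129-1-3p no longer passed, at -0.05 in knockout and -0.46 in wild type, and relative to the median it was at -0.86 and -1.38. MiR-129-2-3p passed under it, at 1.28 in knockout (adjusted p = 0.0009638) and 0.94 in wild type (adjusted p = 0.004815), or 0.47 and 0.02 relative to the median. It also passed in knockout with no filter (0.61, adjusted p = 0.006265) and without olfactory bulb knockout 2 (0.78, adjusted p = 0.03856). The background was 47.1% in knockout, with 1 member called, and 53.4% in wild type, with 2 members called.

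Cortex over hippocampus was the contrast with the fewest calls among all miRNAs, 12.7% in knockout and 20% in wild type. In knockout miR-129-1-3p was at 0.92 (adjusted p = 0.05599), miR-129-2-3p at 0.83 (adjusted p = 0.07826) and miR-129-5p at 0.28 (adjusted p = 0.1591), and 0 of 3 members passed. DESeq2 called 2 of 3 in that knockout contrast, miR-129-1-3p (adjusted p = 0.02228) and miR-129-2-3p (adjusted p = 0.0385). Limma-voom called miR-129-1-3p (adjusted p = 0.04315), and all 3 had an unadjusted p under 0.05 with edgeR. In edgeR miR-129-1-3p also passed under RLE, another scaling (adjusted p = 0.04753), and under library-size scaling (adjusted p = 0.04923). With no filter both 3p arms passed (adjusted p = 0.001286 and 0.001745), and under upper-quartile scaling neither did. On leaving out single libraries miR-129-1-3p passed in 6 fits and miR-129-2-3p in 2. In wild type all 3 arms were higher in the cortex, miR-129-1-3p by 1.13 (adjusted p = 0.00491), miR-129-2-3p by 1.12 (adjusted p = 0.004348) and miR-129-5p by 0.32 (adjusted p = 0.03878). The call for miR-129-5p was lost without cortex wild type 2 or 3 or hippocampus wild type 1 or 3 (adjusted p = 0.0615 to 0.1726). It was also lost with no filter (0.28, adjusted p = 0.4112) and under upper-quartile scaling, where the value was 0.07 (adjusted p = 0.7305). Whether this regional difference itself differs between genotypes was not tested for the pair of regions alone.

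In order of mean level, miR-129-5p ran cerebellum, olfactory bulb, cortex, hippocampus in both genotypes, with no call between olfactory bulb and cortex in either, nor between cortex and hippocampus in knockout. MiR-129-1-3p ran cerebellum, cortex, olfactory bulb, hippocampus in knockout and cerebellum, olfactory bulb, cortex, hippocampus in wild type, with no call between cortex and olfactory bulb. MiR-129-2-3p ran cerebellum, cortex, hippocampus, olfactory bulb in knockout, with no call between neighbours. In wild type it ran cortex, cerebellum, hippocampus, olfactory bulb, with a call between cerebellum and hippocampus but none between the members of each outer pair.

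The Cdr1as knockout was set against wild type next. Averaged over the 4 regions, miR-129-5p had a log2 fold change of -0.04 (95% interval -0.16 to 0.07), miR-129-1-3p of -0.02 (95% interval -0.30 to 0.27) and miR-129-2-3p of -0.06 (95% interval -0.34 to 0.22), each with an adjusted p of 0.9998 from edgeR's quasi-likelihood test. The background was 10 of 669 miRNAs called (1.49%). Of these 10, 7 were olfactory bulb miRNAs, read as markers below, and all 7 were lower in knockout. The interval was narrowest for miR-129-5p. None of the 3 members passed within a region either, where the background was 0.149% in the cerebellum, 2.09% in the cortex, 0% in the hippocampus and 0.149% in the olfactory bulb. Over these 15 tests of members, 0 had an unadjusted p under 0.05 with edgeR, and limma-voom and DESeq2 also gave 0 by either measure. The lowest unadjusted p was 0.151 with edgeR, 0.149 with limma-voom and 0.0798 with DESeq2.

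The cerebellum was the region where the libraries of the genotypes separated. The 3 knockout libraries lay above all 3 wild type libraries for miR-129-1-3p and for miR-129-2-3p, as 30 of 669 miRNAs did (4.48%). The log2 fold changes were 0.27 (95% interval -0.29 to 0.82) and 0.29 (95% interval -0.26 to 0.83), and miR-129-5p was at -0.16 (95% interval -0.38 to 0.06), each with an adjusted p of 1. The low values of wild type 1, 239 CPM for miR-129-1-3p and 572 CPM for miR-129-2-3p, stood apart from the other wild type libraries, and without that library the log2 fold changes were 0.15 and 0.12. Both 3p arms of the olfactory bulb were at -0.37 (95% intervals -0.94 to 0.19 and -0.92 to 0.18), with overlapping libraries. Whether the knockout effect differed between regions was tested over all 4, and no member passed (adjusted p = 0.9965 for each), against 11 of 669 miRNAs (1.64%).

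**Figure D2:**
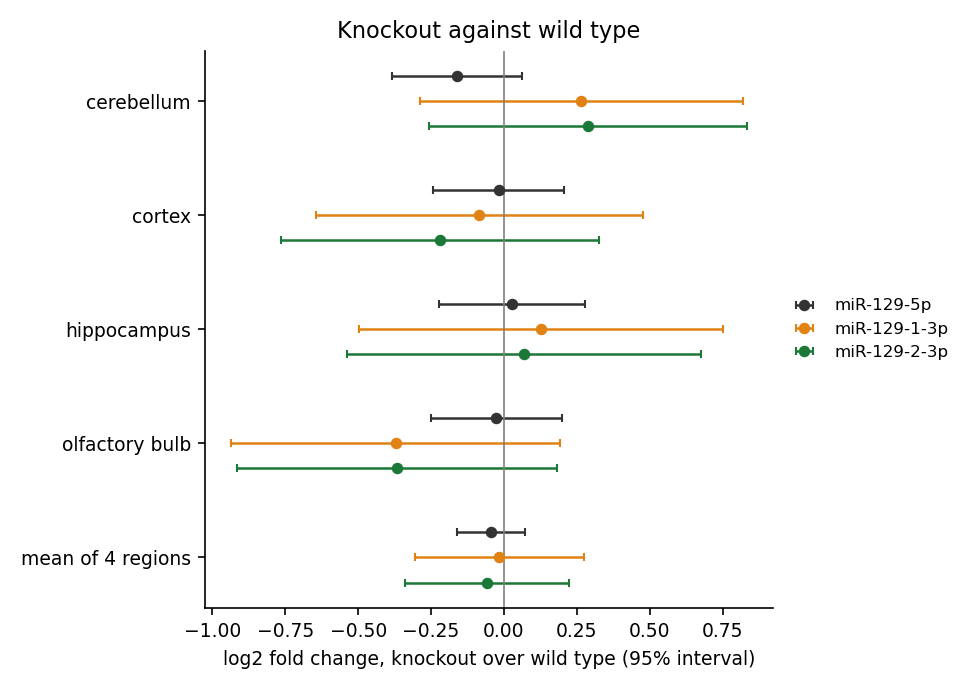
Log2 fold change of each miR-129 arm, Cdr1as knockout over wild type, by region and averaged over the 4 regions. Points are edgeR estimates and bars their 95% intervals. Every interval includes 0, and the averaged estimate of miR-129-5p, at -0.04, has the narrowest interval.

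Precursor use was read as the share of miR-129-1-3p among all 3p counts of a library. Its mean was 27.1% in knockout and 27.6% in wild type cerebellum, and 26.0% in knockout and 26.6% in wild type olfactory bulb, against 13.4% and 12.3% in cortex and 12.7% and 12.3% in hippocampus, knockout before wild type. In the cerebellum the share was 27.7%, 27.2% and 26.4% in knockout libraries, against 29.5%, 26.6% and 26.7% in wild type libraries. Olfactory bulb shares were 27.4%, 27.3% and 23.2% in knockout libraries, against 27.1%, 27.8% and 24.9% in wild type libraries. The lowest of these, knockout 3, rests on 101 of 435 counts, with an exact 95% interval of 19.3% to 27.5%.

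In the cortex the share was 14.99%, 12.7% and 12.4% in knockout libraries, against 12.01%, 12.7% and 12.1% in wild type libraries. In the hippocampus it was 13.1% and 12.3% in knockout libraries, against 12.9%, 11.7% and 12.2% in wild type libraries. All 11 cortical and hippocampal libraries, at 11.7% to 14.99%, therefore lay below all 12 cerebellar and olfactory bulb libraries, at 23.2% to 29.5%. Exact binomial intervals cover counting error only, since reads amplified by PCR without molecular identifiers are not independent molecules.

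**Figure D3:**
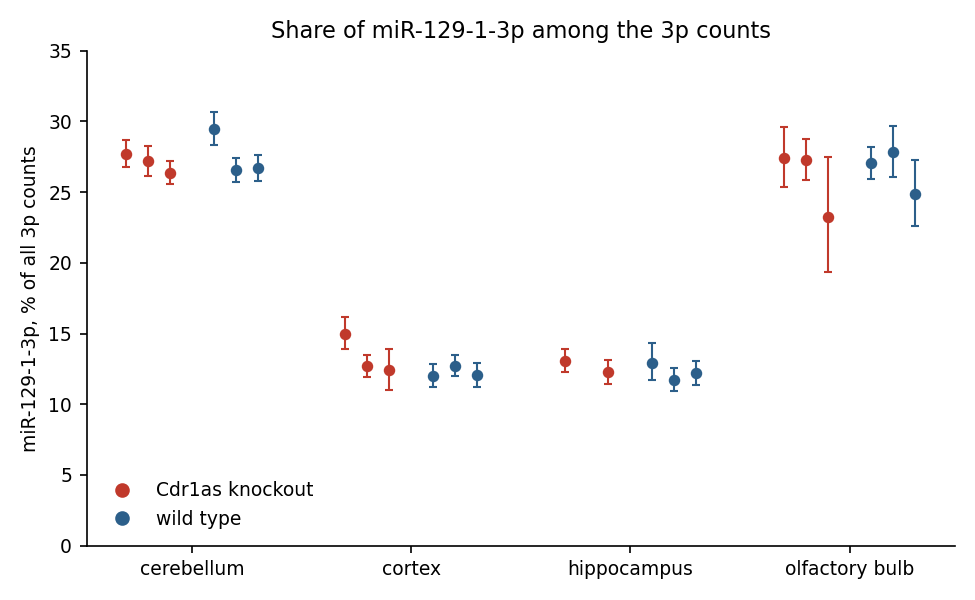
Share of miR-129-1-3p among all 3p counts (%), by brain region, on an axis starting at 0. Points are libraries, with Cdr1as knockout left of wild type, and bars are exact 95% binomial intervals. Cerebellum and olfactory bulb lie at 23.2% to 29.5%, cortex and hippocampus at 11.7% to 14.99%, and the genotypes overlap in every region.

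The log2 ratio of miR-129-1-3p to miR-129-2-3p was tested with a two-sided exact permutation test over libraries, exchanging regions within genotypes, with adjustment over 12 tests (6 region pairs for each of the ratios of precursors and of arms). The ratio was higher in cerebellum than in cortex by 1.36 (95% interval 1.21 to 1.50), and higher in cerebellum than in hippocampus by 1.40 (1.29 to 1.52). It was lower in cortex than in olfactory bulb (-1.28, -1.44 to -1.09) and lower in hippocampus than in olfactory bulb (-1.32, -1.49 to -1.13). Each of these 4 had an exact p of 0.005, the smallest the design allows, and an adjusted p of 0.01. Cerebellum minus olfactory bulb was 0.08 (-0.06 to 0.24, exact p = 0.305, adjusted p = 0.366), and cortex minus hippocampus 0.04 (-0.10 to 0.21, exact p = 0.685, adjusted p = 0.685). The regions thus fell into a pair with the higher and a pair with the lower share.

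The same 4 differences stood in each genotype taken alone. Cerebellum minus cortex was 1.27 in knockout and 1.44 in wild type, and cerebellum minus hippocampus was 1.36 in knockout and 1.44 in wild type. Cortex minus olfactory bulb was -1.19 in knockout and -1.37 in wild type, and hippocampus minus olfactory bulb was -1.27 in knockout and -1.37 in wild type. Within a genotype the exact p was 0.1 for each, the smallest that groups of this size allow. Unlike the levels, a ratio of counts within a library does not depend on how libraries are scaled.

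Between the genotypes the precursor ratio gave no call. The averaged log2 ratio differed by 0.03 between knockout and wild type (95% interval -0.07 to 0.12, exact permutation p = 0.5822, adjusted over 2 ratios p = 0.9166). By region the difference was -0.03 in the cerebellum, 0.14 in the cortex, 0.05 in the hippocampus and -0.05 in the olfactory bulb, with overlapping libraries in all 4. The interval does not reach the size of the 4 called differences between regions.

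Markers of other tissues and cells were read in the same libraries. MicroRNAs typical of the olfactory bulb (miR-182-5p and miR-183-5p with their cluster partner, and 5 miRNAs of the miR-200 family, 8 of 8 past the filter) summed to 142 to 445 CPM in knockout cortex, against 3676 to 6803 CPM in wild type cortex, and to 219000 to 394000 CPM in knockout olfactory bulb, against 271200 to 300800 CPM in wild type olfactory bulb. Their sum was 175 to 225 CPM in knockout and 200 to 327 CPM in wild type hippocampus. In the cerebellum it was 551 to 1131 CPM in knockout and 876 to 1133 CPM in wild type. Wild type cortex thus lay above every group but those of the olfactory bulb. All 8 were called lower in knockout than in wild type cortex, among 14 miRNAs called there, and 0 of 8 passed in any other region. The precursor share was 13.4% ± 1.4 (SD, n = 3) in knockout cortex, against 12.3% ± 0.41 (SD, n = 3) in wild type cortex. Choroid plexus miRNAs summed to 3302 to 3573 CPM in knockout hippocampus, against 3082 to 13410 CPM in wild type hippocampus. In the cerebellum their sum was 10390 to 14380 CPM in knockout and 11180 to 18760 CPM in wild type. Every cortical library (at most 3385 CPM) and every olfactory bulb library (at most 5173 CPM) lay below that, as for miR-129-5p. Wild type hippocampus overlapped the cerebellum in this sum, whereas miR-129-5p was lowest in the hippocampus. For cerebellum over hippocampus 3 of 9 passed as higher and 0 as lower in each genotype, with a list median of 2.09 in knockout and -0.15 in wild type. Over cortex 3 of 9 passed as higher in knockout and 6 of 9 in wild type. Over olfactory bulb it was 6 and 8 of 9, with miR-449a-5p lower in both. The sum of 4 red blood cell miRNAs was highest in the cerebellum, at 34000 to 38430 CPM in knockout and 32110 to 47230 CPM in wild type, and at most 10480 CPM in any other region. Of these, miR-486a-5p alone passed for cerebellum over cortex, at 2.95 in knockout and 3.25 in wild type. It alone also passed for cerebellum over olfactory bulb, at 1.99 in knockout and 2.15 in wild type. For cerebellum over hippocampus miR-486a-5p was at 3.07 in knockout and 3.11 in wild type, and miR-451a at 0.90 and 0.66, all past the threshold. MiR-144-5p passed there in wild type (0.57) and not in knockout, and miR-144-3p passed in neither. The median of the 4 for cerebellum over cortex was 0.51 in knockout and 0.34 in wild type. Lists of oligodendrocyte, of microglia and leukocyte, and of endothelial and mural miRNAs gave no call between knockout and wild type in any region. The oligodendrocyte sum was 2016 to 2152 CPM in knockout and 2097 to 2393 CPM in wild type cerebellum, and at most 2017 CPM elsewhere. The microglia and leukocyte sum and the endothelial and mural sum peaked in knockout hippocampus, at 988 and 31150 CPM. The part of other cell types in the levels of miR-129 was not tested.

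Other miRNAs with a pair of precursors give a scale for this difference. Of the arms named for precursor 1 and precursor 2 of the same miRNA, 14 pairs passed the filter. Over the 4 wild type regions the mean log2 ratio of the miR-129-3p pair ranged over 1.445, which ranked 8 of 14, against a median of 1.648. The widest ranges were those of miR-7a-3p (5.46), miR-135a-3p (3.599, with 77 counts of the rarer arm in all libraries) and miR-218-3p (3.264). In the averaged difference between knockout and wild type the miR-129-3p pair ranked 13 of 14 by size, at 0.027 against a median size of 0.098. No test was made on these ranks.

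**Figure D4:**
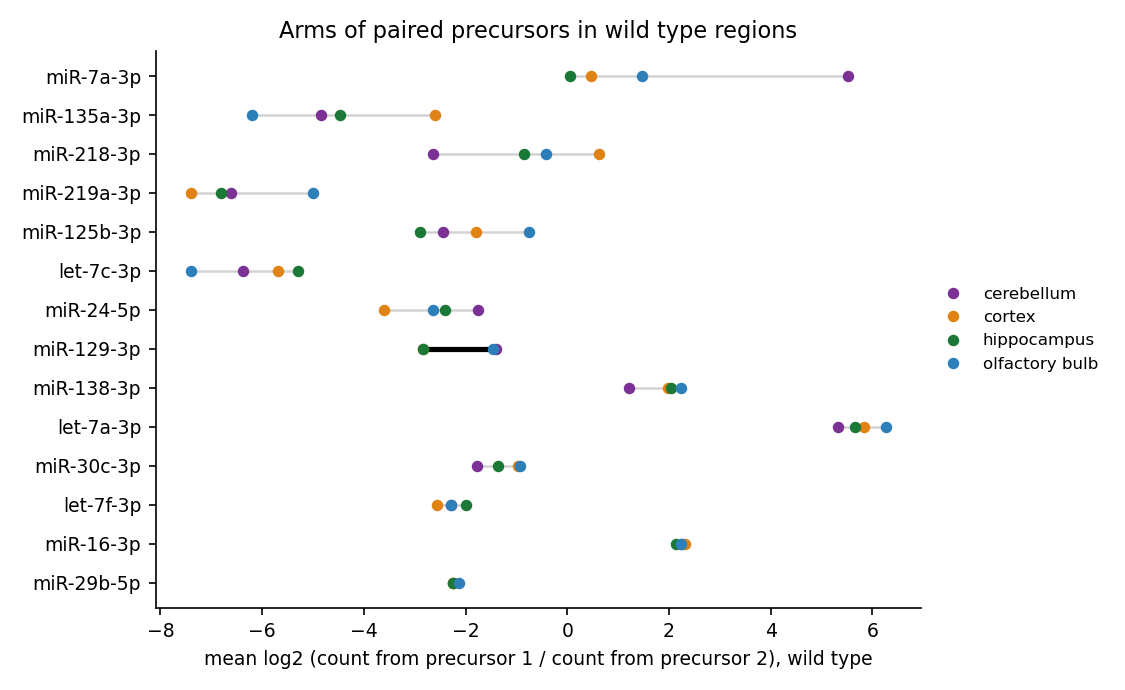
Mean log2 ratio of the count from precursor 1 to that from precursor 2 in wild type regions, for the 14 arms with a pair of counted precursors, ordered by their range. Points are the 4 regions and lines join the lowest and highest, with the miR-129-3p pair in black. Its cerebellum and olfactory bulb lie together at the right and its cortex and hippocampus together at the left, a range of 1.445.

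The balance between the arms was read as the 5p count over the sum of both 3p counts. It was 1.29, 1.40 and 1.33 in knockout cerebellum, against 2.04, 1.79 and 1.71 in wild type cerebellum. In the cortex it was 1.48, 1.11 and 1.49 in knockout libraries, against 1.03, 1.25 and 1.22 in wild type libraries. The cerebellum was the region without overlap, with knockout lower by 0.46 on the log2 scale (log2 difference -0.46, exact p = 0.1, the smallest possible there). In the hippocampus the ratio was 2.21 and 1.76 in knockout libraries, against 3.21, 1.83 and 1.56 in wild type libraries. Olfactory bulb ratios were 2.76, 1.87 and 4.84 in knockout libraries, against 1.64, 2.41 and 2.73 in wild type libraries. Knockout minus wild type was 0.21 in the cortex, -0.09 in the hippocampus and 0.40 in the olfactory bulb on the log2 scale, with overlapping libraries. Averaged over regions, with values of both signs, it was 0.02 (95% interval -0.32 to 0.36, exact permutation p = 0.9166). Whether the genotype difference in this ratio differed between regions was not tested.

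Between regions the arm ratio was lower in cortex than in olfactory bulb (-1.02, 95% interval -1.55 to -0.50, exact permutation p = 0.005, adjusted p = 0.01) and lower in cortex than in hippocampus (-0.70, -1.16 to -0.28, adjusted p = 0.01). It was also lower in cerebellum than in olfactory bulb (-0.70, -1.24 to -0.15, adjusted p = 0.03429). By genotype, cerebellum minus olfactory bulb was -1.12 in knockout (exact p = 0.1, the smallest possible) and -0.27 in wild type (exact p = 0.4), and cerebellum minus cortex was -0.01 in knockout (exact p = 1.0) and 0.66 in wild type (exact p = 0.1), and whether these differ between genotypes was not tested. Cortex minus olfactory bulb was -1.12 in knockout and -0.93 in wild type, and cortex minus hippocampus was -0.55 in knockout and -0.85 in wild type. The pooled cerebellum and olfactory bulb call was lost on leaving out any of 6 single libraries, and the cortex and hippocampus call without cortex wild type 1 (adjusted p = 0.05143). The remaining pairs did not pass, with 0.33 for cerebellum minus cortex, -0.37 for cerebellum minus hippocampus and -0.32 for hippocampus minus olfactory bulb.

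The arm ratio varied more within groups than the precursor ratio. Its pooled SD within groups was 0.37 on the log2 scale, against 0.12 for the precursor ratio (15 degrees of freedom each). In 3 of 4 regions the shallowest library had the highest arm ratio. In the olfactory bulb the log2 arm ratio was 2.27 in knockout 3, with 2530737 counts, and 0.72 in wild type 1, with 13070794 counts. In the hippocampus it was 1.68 in wild type 1, with 7217821 counts, and 1.14 in knockout 2, with 12690054 counts. In the cortex it was 0.573 in knockout 3, with 2328929 counts, nearly tied with 0.568 in knockout 1, with 4431438 counts. Cortex wild type 2, with 6830695 counts, was at 0.32. In the cerebellum the shallowest library, knockout 2, was at 0.49, and the highest was wild type 1. The part of depth in the regional arm ratios was not tested, nor was that of ligation or amplification preferences between the arms.

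**Figure D5:**
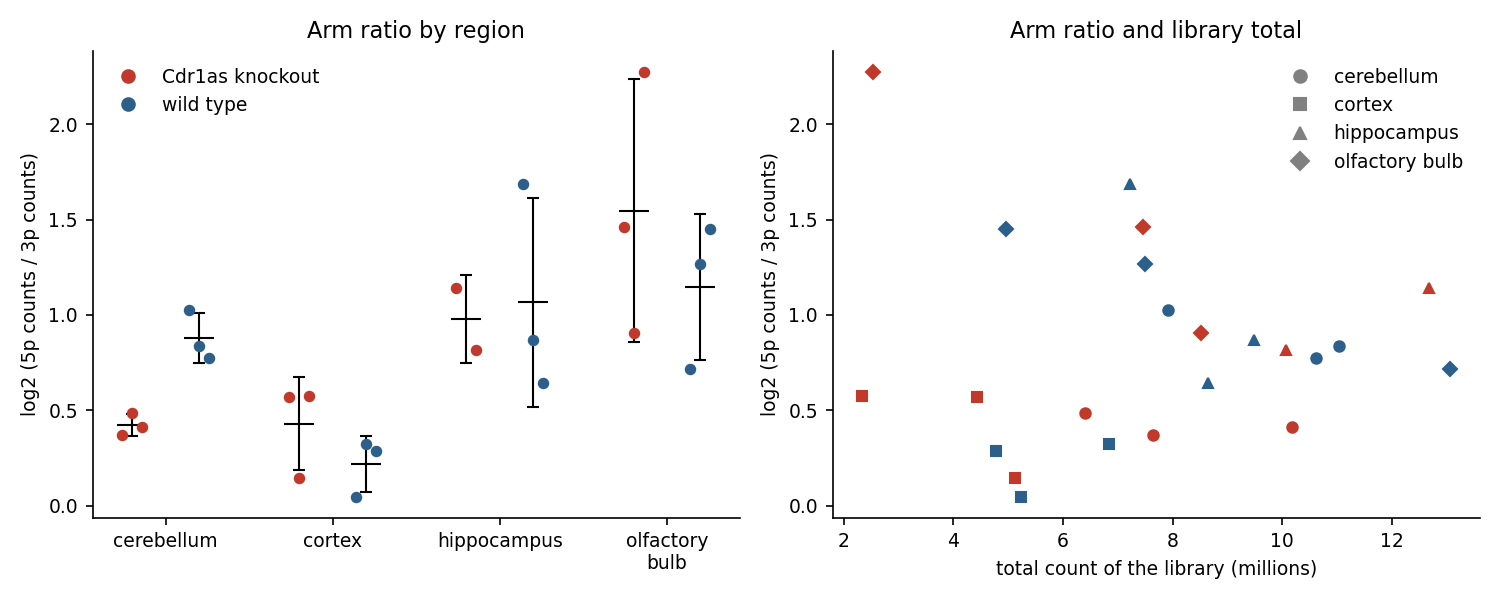
Log2 ratio of miR-129-5p counts to the sum of both 3p counts. The left panel shows libraries by region, with Cdr1as knockout left of wild type and bars for the mean ± SD (n = 3, and n = 2 for hippocampus knockout). The right panel plots the same ratio against the library's total count, with a symbol for each region, and the highest value, 2.27, belongs to olfactory bulb knockout 3, with 2530737 counts.

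Over the 8 group means of log2 CPM, miR-129-5p followed miR-129-1-3p (Pearson r = 0.966) more closely than miR-129-2-3p (r = 0.658), and the 3p arms had r = 0.690 with each other. These are descriptions over 8 groups that share their libraries and scaling. The 5 miRNAs with the pattern most like miR-129-5p were miR-30c-5p (0.973), miR-879-5p (0.972), miR-217-5p (0.970), miR-10b-5p (0.969) and miR-700-5p (0.967), and 46 of 666 other miRNAs had an r of at least 0.9. For miR-129-1-3p they were miR-700-5p (0.957), miR-30c-5p (0.954), miR-879-5p (0.947), miR-700-3p (0.938) and miR-216b-5p (0.935), with 21 of 666 at 0.9 or more. For miR-129-2-3p they were miR-653-5p (0.963), miR-1251-5p (0.938), miR-299b-5p (0.931), miR-299a-5p (0.930) and miR-467d-5p (0.929), with 5 of 666. The lists for miR-129-5p and miR-129-1-3p share 3 names, and that for miR-129-2-3p shares none with either. MiR-653-5p and miR-1251-5p are rare, at up to 6.39 and 7.05 CPM in wild type cortex, and miR-216b-5p is rarer, at 2.90 CPM in knockout and 2.32 CPM in wild type cerebellum and at most 0.38 CPM in any other group. MiR-299a-5p and miR-299b-5p had nearly equal means in all 8 groups, 11.7 CPM each in knockout cerebellum and 10.6 CPM each in wild type cerebellum, so they may not be separate counts.

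MiR-129-5p is often discussed with other miRNAs of synaptic scaling and plasticity, and 7 of these were followed as a list (miR-92a-3p, miR-124-3p, miR-132-3p, miR-134-5p, miR-186-5p, miR-218-5p and miR-485-5p). Between knockout and wild type, 0 of 7 passed in any region or on average, with 0 of 35 unadjusted p-values under 0.05 from edgeR, and the median log2 fold change on average was -0.004 for the list and -0.003 for all miRNAs. Between cerebellum and cortex, where miR-129-5p was higher in the cerebellum, miR-124-3p, a neuronal miRNA, was also higher, by 0.98 in knockout and 0.96 in wild type. Of 8 neuron-enriched miRNAs, miR-124-3p among them, 3 were higher and 5 lower in each genotype, with a median of -0.74 in knockout and -0.83 in wild type. The activity-induced miR-132-3p was lower there, at -2.37 in knockout and -2.26 in wild type. Altogether 1 of 7 was higher and 5 of 7 were lower in each genotype, where 29.6% of all miRNAs were higher and 30.2% lower in knockout and 31.1% higher and 31.5% lower in wild type, with a list median of -0.53 in knockout and -0.42 in wild type, against medians of 0.06 and 0.02 over all miRNAs.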

How the data were processed

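Counts of reads per miRNA were deposited by the authors as 1 table per library, unnormalized. The labels' protocols name TRIZOL for the total RNA and the TruSeq Small RNA kit, and the submitters' processing notes name the build mm9. Which aligner and counter were used, and what became of ambiguous reads, is not given in the sources used here. Libraries of a group differed by more than sampling noise. Counts were tested with edgeR 4.0.16 (R 4.3.3): TMM scaling, a minimum count of 10 and total of 15 in the filter (669 of 1459 miRNAs with a count kept), a mean for each of 8 groups, and Benjamini-Hochberg adjustment with a threshold of 0.05. Ratios were log2 ratios of counts with 0.5 added, tested by exact permutation over libraries with scipy 1.17.1, and their intervals come from inverting that test. Both procedures were tested on simulated data. The text names the 3 members, the 5 miRNAs most like each by Pearson correlation, the called members of the synaptic list and the 3 paired precursors with the widest range. The members and lists were chosen with earlier results of these data known. Replicate numbers were checked as pairs, by correlating deviations from group means. In the cerebellum, knockout and wild type libraries of the same number met the criterion of r over 0.1 in 3 of 3 pairs (0.103 to 0.374). Cerebellar pairs of different numbers ran from -0.378 to 0.195. In the other regions not every same-numbered pair met it, with r from -0.03 to 0.14 in the cortex, -0.216 to -0.011 in the hippocampus and -0.047 to 0.139 in the olfactory bulb.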

Additional observations from a re-analysis of the deposited data

How the results depend on the processing

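Of 2183 recomputed values for 74 results, 2118 kept their side of the threshold and, where called, their direction. No alternative scaling, tool, filter, block or left-out library brought a miR-129 arm past the threshold between knockout and wild type. The averaged arm ratio between knockout and wild type, 0.02, was -0.11 without the olfactory bulb (exact permutation p = 0.5145) and -0.07 to 0.10 on leaving out single libraries, and it passed in none. Exchanging genotypes among replicate numbers gave exact permutation p = 0.8 for the precursor ratio and 0.9 for the arm ratio. These additions were chosen after seeing the data.

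With library size as the only scaling, 5 regional values changed sign and were past the threshold: cortex over olfactory bulb for miR-129-5p (0.89 in knockout and 0.89 in wild type) and for miR-129-1-3p in wild type (0.65), and hippocampus over olfactory bulb for miR-129-5p (0.55 in knockout and 0.58 in wild type). Under the replicate block for the ratios, exchange within same-numbered pairs, the precursor differences of 1.36, 1.40, -1.28 and -1.32 had an adjusted p of 0.0625, and so had the arm differences of -0.70 (cortex minus hippocampus) and -1.02, while -0.70 for cerebellum minus olfactory bulb had 0.1071. The unadjusted exact p was 0.03125 for those with the lower value, and the smaller number of arrangements limits it. Same-numbered libraries of different regions correlated between -0.339 and 0.256, and the numbers otherwise mark no shown pairing. In edgeR the block changed 2 member calls, both hippocampus over olfactory bulb in knockout: miR-129-5p gained (adjusted p = 0.04109) and miR-129-1-3p lost (adjusted p = 0.0576). The block changed no other call of a member. With the cerebellum numbers alone as a replicate block, added after seeing the data, 1 miRNA was called in the cerebellum, as without it, and no arm passed.

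Leaving out 1 library at a time kept the precursor differences between 1.32 and 1.41 (cerebellum minus cortex), 1.37 and 1.43 (cerebellum minus hippocampus), -1.33 and -1.25 (cortex minus olfactory bulb) and -1.37 and -1.29 (hippocampus minus olfactory bulb), all called. The arm differences ran from -0.86 to -0.51 for cerebellum minus olfactory bulb, lost without cerebellum wild type 3, any cerebellum knockout library, or olfactory bulb wild type 2 or 3 (adjusted p up to 0.0825). They ran from -0.80 to -0.54 for cortex minus hippocampus, and from -0.48 to -0.22 for cerebellum minus hippocampus, which gained a call without hippocampus wild type 3.

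Counts over all miRNAs between knockout and wild type moved most without the filter, from 10 to 21 on average, 1 to 12 in the cerebellum, 0 to 20 in the hippocampus, 1 to 4 in the olfactory bulb and 11 to 31 for the difference between regions. DESeq2 called 3 in the cerebellum and 3 in the hippocampus, limma-voom 2 in the hippocampus and 4 for the difference between regions, and the replicate block 2 in the hippocampus. Fitted on the 2 groups of the region only, the cerebellum and the olfactory bulb had 0. The hippocampus, with 0 called, had 39 of 669 at an unadjusted p under 0.05. Leaving out single libraries gave 0 to 8 calls there, 8 of them without hippocampus wild type 2, and 43 against 85 calls for cortex over hippocampus in knockout without hippocampus knockout 3. Depth limits the 3p arms most in olfactory bulb knockout 3, with 101 and 334 counts.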

Other observations

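MiR-670-3p, chosen after its values were seen, comes from a hairpin in the same host gene as Mir129-2. In GENCODE M21 on GRCm38, Mir670 lies at chr2:94261300-94261399 within Mir670hg, 19846 bases from Mir129-2 and on the same strand. Its level was 19.8 ± 5.0 CPM in knockout and 26.8 ± 5.6 CPM in wild type cerebellum (SD, n = 3 each), and 14.9 ± 1.4 CPM in knockout and 14.5 ± 0.35 CPM in wild type olfactory bulb. In the cortex it was 5.09 ± 1.9 CPM in knockout and 6.92 ± 0.34 CPM in wild type, and in the hippocampus 5.98 ± 0.54 CPM in knockout (n = 2) and 5.87 ± 0.63 CPM in wild type (n = 3). Over the 8 group means its r was 0.798 with miR-129-1-3p and 0.827 with miR-129-5p, which the Mir129-1 hairpin on chromosome 6 also encodes, and 0.164 with miR-129-2-3p, whose hairpin shares its host gene.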
